A study of Mus musculus with 32 samples.

Results

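Lcn2, Saa3 and Chil1 are 3 of the 11818 genes counted in a study of mouse lung organoids, and their levels are given here in all 32 libraries. The 3 genes were chosen by their log2 fold changes, since their RNA was higher with each treatment than with vehicle in earlier work on the same counts. Those differences are therefore given as values without a test, and tests are kept for comparisons that played no part in the choice. The organoids held Epcam+ lung cells (CD31- and CD45-) of 4 mice, together with CCL206 cells, an established line of mouse lung fibroblasts that mitomycin-C had kept from dividing. The donor animals were C57BL/6 J mice of 8 to 14 weeks. Each culture received 1 of 4 treatments for 72 h, namely vehicle, extracellular vesicles (EVs, 1000000000 particles/mL), soluble factors (SFs, 30 µg/mL) or human recombinant osteoglycin (OGN, 10 µg/mL). The vesicles and the soluble factors were fractions of medium from MRC5 cells, a human lung fibroblast line. The cultures were then re-sorted with Epcam beads into an Epcam+ and a CCL206 fraction, which gave 8 groups of 4 libraries. A mouse number in the CCL206 fraction therefore names the culture, since the fibroblasts are 1 cell line, and none of the groups holds epithelial cells grown without fibroblasts.

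Lcn2 encodes lipocalin 2, a secreted protein that binds bacterial siderophores and so keeps iron from microbes. Saa3 encodes a serum amyloid A protein that mouse tissues outside the liver make in the acute-phase response. Chil1 encodes a secreted chitin-binding lectin of the chitinase family without enzyme activity, known as BRP-39 in the mouse, and it is an inflammation-associated gene rather than a classical acute-phase gene. Transcription of acute-phase genes is known to depend on NF-kB, C/EBP factors and STAT3 downstream of cytokines such as IL-1, IL-6 and TNF. In the lung, airway and alveolar epithelial cells, macrophages and neutrophils are known sources of such proteins.

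In RefSeq on GRCm38.p6, Lcn2 lies at chr2:32384637-32387739, Saa3 at chr7:46711998-46719615 and Chil1 at chr1:134182156-134190031. Because the 3 genes moved together, the 250 bases before their annotated starts are shown, each in the direction of transcription. They are chr2:32387740-32387989 (minus strand) for Lcn2, chr7:46715677-46715926 (minus strand) for Saa3 and chr1:134181906-134182155 (plus strand) for Chil1. The start used for Saa3 lies inside the span given for that gene. Capitals mark matches, on either strand, to 4 binding motifs that were searched.
Lcn2: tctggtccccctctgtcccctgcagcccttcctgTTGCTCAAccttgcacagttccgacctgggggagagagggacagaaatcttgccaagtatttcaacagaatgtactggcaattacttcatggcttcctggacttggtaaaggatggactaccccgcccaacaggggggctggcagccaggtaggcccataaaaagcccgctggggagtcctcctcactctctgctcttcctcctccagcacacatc
Saa3: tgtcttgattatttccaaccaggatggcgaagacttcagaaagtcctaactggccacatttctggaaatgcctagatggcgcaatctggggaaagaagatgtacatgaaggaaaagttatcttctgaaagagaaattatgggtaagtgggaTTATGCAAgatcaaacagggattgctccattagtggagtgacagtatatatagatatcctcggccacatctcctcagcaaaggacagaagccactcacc
Chil1: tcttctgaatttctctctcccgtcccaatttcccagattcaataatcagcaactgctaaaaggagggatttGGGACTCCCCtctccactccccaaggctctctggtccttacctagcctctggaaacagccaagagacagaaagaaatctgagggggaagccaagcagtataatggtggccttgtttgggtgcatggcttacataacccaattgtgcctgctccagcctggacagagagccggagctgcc
The motifs were C/EBP (TTGCNNAA), STAT (TTCNNNGAA), AP-1 (TGANTCA) and the 10-letter NF-kB motif. Lcn2 and Saa3 each held 1 C/EBP match, starting 216 and 99 bases before the start, and Chil1 held 1 NF-kB match starting 179 bases before it. No match overlapped another. No STAT or AP-1 match was found in the 3 sequences. Of 32851 mouse promoters of the same length, 9.56% held the C/EBP motif, 3.9% NF-kB, 7.02% STAT and 6.75% AP-1, and a match is a description of letters only.

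The libraries held between 1805914 and 17675454 counts (median 5901652). Levels are CPM (counts scaled to a common library total) after scaling by TMM. Epcam was at 289 ± 26.3 CPM (SD, n = 4) in vehicle-treated Epcam+ libraries and at 11.5 ± 3.45 CPM in the CCL206 libraries of the same cultures. The 10 genes listed as markers of alveolar type 2 (AT2) cells summed to between 9552 and 15999.5 CPM in Epcam+ cells with vehicle, and to between 1876 and 4841 CPM in the CCL206 fraction. Of these 10, 8 were higher in Epcam+ cells at an adjusted p of 0.05 (edgeR's quasi-likelihood test), and 2 did not pass. Each fraction thus held RNA of genes that mark the other. In the EV-treated CCL206 libraries, short transcripts were high relative to long ones. Spearman rho across genes of the deviation from the vehicle mean with transcript length was -0.584 and -0.624 in mice 2 and 4. It was -0.288 and -0.364 in mice 1 and 3, and between -0.288 and 0.3304 in the other groups. A smoothed trend was also taken against the mean of the 16 libraries of the fraction. In mice 2 and 4 it amounted to 0.70 and 0.92 log2 units at the length of Lcn2, 0.66 and 0.87 at that of Saa3, and 0.34 and 0.49 at that of Chil1. At the length of Lcn2 it was 0.04 and 0.09 in mice 1 and 3, and between -0.27 and -0.07 with vehicle. Differences with EVs in CCL206 are also given without the libraries of mice 2 and 4, which leaves the weaker trend of mice 1 and 3. Levels are given for all 4.

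Lcn2 was lowest with vehicle, intermediate with EVs and SFs and highest with OGN in both fractions. In Epcam+ cells of mice 1 to 4 it was at 37.9, 44.1, 25.9 and 41.8 CPM with vehicle, and at 142, 92.0, 107 and 118 CPM with EVs. With SFs it was at 154, 103, 133 and 156 CPM. With OGN it was at 501, 475, 462 and 353 CPM. The EV and SF groups overlapped, whereas vehicle lay below and OGN above both. In CCL206 fibroblasts, Lcn2 was at 13.9, 8.19, 10.5 and 10.3 CPM with vehicle and at 49.2, 42.0, 41.5 and 51.3 CPM with EVs. It was at 66.6, 42.0, 65.9 and 43.6 CPM with SFs. OGN-treated fibroblasts held 425, 381, 389 and 333 CPM, with all 4 values above those of the 12 other CCL206 libraries. From low to high, the means were 10.7 ± 2.38 CPM (SD, n = 4) in CCL206 with vehicle, 37.4 ± 8.10 in Epcam+ with vehicle, 46.0 ± 5.01 in CCL206 with EVs and 54.5 ± 13.6 in CCL206 with SFs. They continued with 115 ± 20.8 in Epcam+ with EVs, 137 ± 24.6 in Epcam+ with SFs, 382 ± 37.8 in CCL206 with OGN and 448 ± 65.2 in Epcam+ with OGN. Of neighbours in this order, Epcam+ with vehicle and CCL206 with EVs, CCL206 with EVs and with SFs, Epcam+ with EVs and with SFs, and the pair of OGN groups overlapped. The other 3 neighbouring pairs did not.

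Saa3 had between 1 and 18 counts per library with vehicle and between 358 and 3943 with OGN. The 4 vehicle-treated Epcam+ libraries held 18, 2, 4 and 1 counts, or 1.06, 0.643, 0.809 and 0.279 CPM. The 4 vehicle-treated CCL206 libraries held 1, 1, 3 and 12 counts, or 0.106, 0.139, 0.279 and 1.19 CPM. The vehicle groups of the 2 fractions overlapped, at levels that rest on few counts. In Epcam+ cells, Saa3 was at 10.1, 4.11, 7.85 and 6.06 CPM with EVs and at 10.5, 11.6, 13.2 and 15.1 CPM with SFs. With OGN it was at 124, 120, 104 and 96.3 CPM, above every other Epcam+ library. In CCL206 fibroblasts it was at 6.80, 18.5, 10.6 and 13.7 CPM with EVs and at 14.8, 12.1, 18.5 and 15.8 CPM with SFs. With OGN it was at 325, 254, 243 and 270 CPM. The 4 groups treated with EVs or SFs overlapped with their neighbours and had means of 7.04 ± 2.57 CPM (SD, n = 4; Epcam+ with EVs), 12.4 ± 4.95 (CCL206 with EVs), 12.6 ± 2.02 (Epcam+ with SFs) and 15.3 ± 2.64 (CCL206 with SFs). Unlike Lcn2 and Chil1, Saa3 was higher in the CCL206 than in the Epcam+ fraction with OGN (273 ± 36.3 against 111 ± 13.1 CPM), and the 2 groups did not overlap.

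Chil1 had the smallest relative differences between treatments of the 3 genes. In Epcam+ cells it was at 238, 168, 188 and 207 CPM with vehicle and at 473, 349, 370 and 423 CPM with EVs. It was at 535, 423, 452 and 540 CPM with SFs. OGN gave 1018, 919, 813 and 830 CPM, and the OGN group overlapped with no other. In CCL206 fibroblasts, Chil1 was at 85.0, 51.5, 58.9 and 34.9 CPM with vehicle and at 144, 121, 127 and 109 CPM with EVs. With SFs it was at 146, 101, 126 and 71.5 CPM, so that 1 SF-treated library lay within the range of vehicle. With OGN the values were 393, 286, 430 and 254 CPM. The order of the means was 57.6 ± 20.8 CPM (SD, n = 4; CCL206 with vehicle), 111 ± 32.5 (CCL206 with SFs), 125 ± 14.7 (CCL206 with EVs), 200 ± 29.6 (Epcam+ with vehicle), 341 ± 84.1 (CCL206 with OGN), 404 ± 55.7 (Epcam+ with EVs), 487 ± 58.9 (Epcam+ with SFs) and 895 ± 94.3 (Epcam+ with OGN). The 3 CCL206 groups without OGN lay below every Epcam+ group, which was not so for Lcn2 or Saa3.

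**Figure D1:**
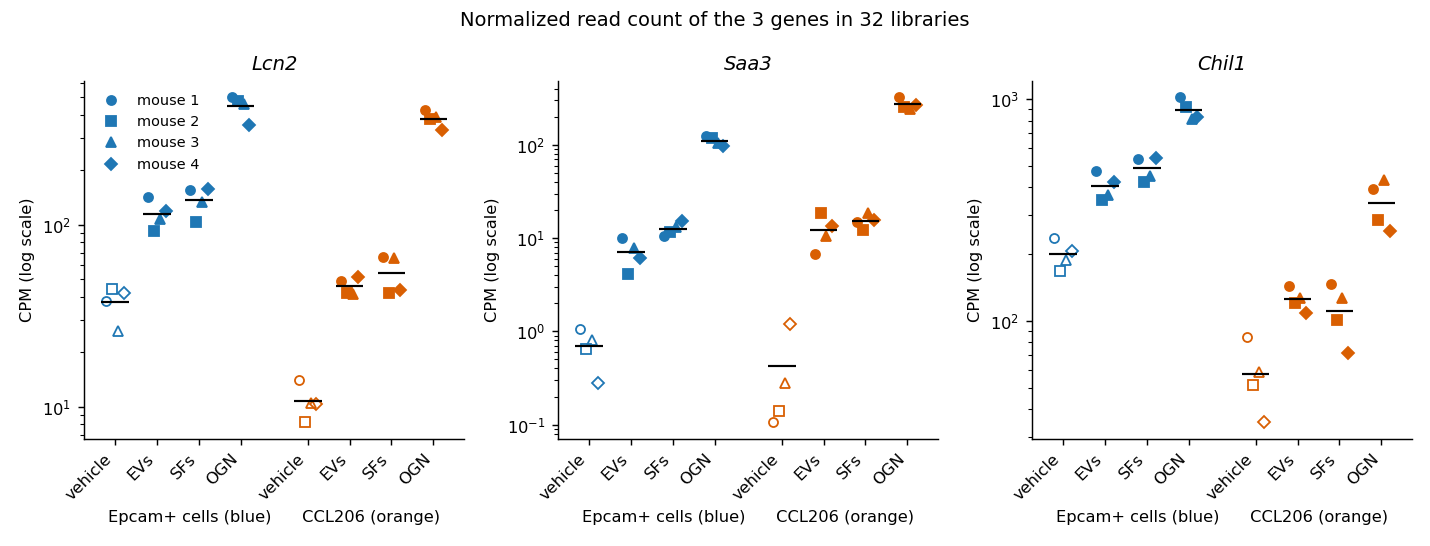
CPM (log scale) of Lcn2, Saa3 and Chil1 in each of the 32 libraries, by fraction (blue, Epcam+; orange, CCL206) and treatment, with a symbol for each mouse, open symbols for vehicle and a line at the mean of 4. The OGN groups were highest within each fraction, and Saa3 with vehicle lay between 0.106 and 1.19 CPM.

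Every member was higher than vehicle in 4 of 4 mice with each of the 3 treatments in both fractions, which is how the members were chosen. For scale, the share of all genes that passed an adjusted p of 0.05 against vehicle was 0.888% with EVs, 0.230% with SFs and 2.70% with OGN in Epcam+ cells, and 36.0%, 0.0599% and 4.56% in CCL206 fibroblasts (edgeR's quasi-likelihood test). The members' own differences entered their choice, so nothing is read from this background or from the ranks given below. The ranks are among genes with at least 1 count in all 32 libraries. In Epcam+ cells, the log2 fold change of Lcn2 was 1.64 (SE 0.142) with EVs, 1.91 (SE 0.144) with SFs and 3.63 (SE 0.144) with OGN. That of Saa3 was 3.08 (SE 0.318), 3.88 (SE 0.305) and 7.06 (SE 0.258), and that of Chil1 0.99 (SE 0.0766), 1.28 (SE 0.0773) and 2.17 (SE 0.0784). Saa3 ranked first of 11716 genes by log2 fold change with all 3 treatments, Lcn2 ranked at places 5, 2 and 2, and Chil1 at places 51, 18 and 9. In CCL206 fibroblasts, the log2 fold change of Lcn2 was 2.11 (SE 0.148) with EVs, 2.33 (SE 0.145) with SFs and 5.16 (SE 0.154) with OGN. For Saa3 it was 4.73 (SE 0.439), 5.04 (SE 0.415) and 9.19 (SE 0.370), and for Chil1 1.18 (SE 0.130), 0.96 (SE 0.128) and 2.60 (SE 0.132). Saa3 again ranked first, of 11689 genes, with each treatment, Lcn2 at places 22, 2 and 2, and Chil1 at places 249, 72 and 10. Without the EV-treated CCL206 libraries of mice 2 and 4, the log2 fold change with EVs in CCL206 was 1.88 for Lcn2, 4.28 for Saa3 and 0.94 for Chil1. With the length trend removed from every library it was 1.51, 4.15 and 0.87.

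**Figure D2:**
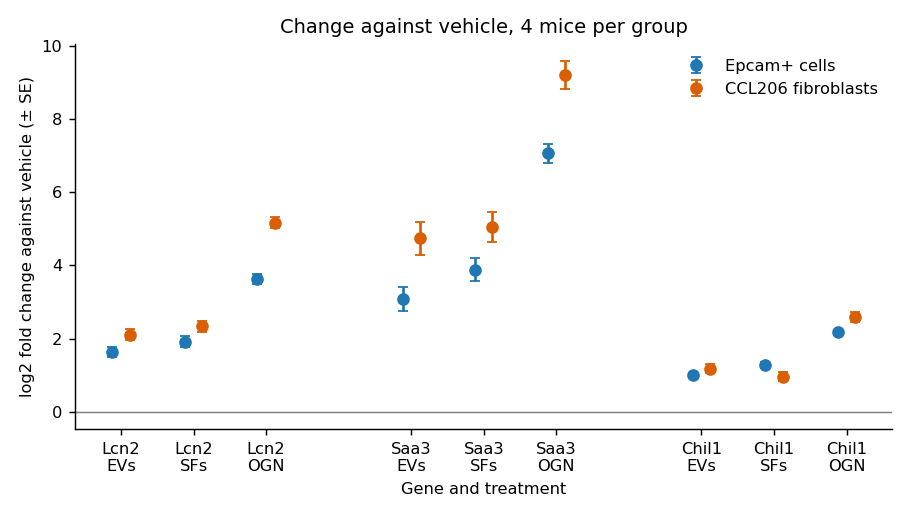
Log2 fold change against vehicle (± SE) of Lcn2, Saa3 and Chil1 with EVs, SFs and OGN in Epcam+ cells (blue) and CCL206 fibroblasts (orange), from 4 mice per group. Saa3 had the highest values with each treatment, up to 9.19 with OGN in CCL206.

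The fold change of Saa3 depended on how many counts the vehicle library held. In CCL206 fibroblasts, the ratio of OGN to vehicle was 3074-fold in mouse 1 (1433 against 1 count, 95% counting interval 551 to 121484) and 227-fold in mouse 4 (2145 against 12 counts, interval 130 to 440). Without mouse 4, the log2 fold changes of Saa3 in CCL206 were 5.91 with EVs, 6.25 with SFs and 10.42 with OGN. In Epcam+ cells without mouse 1, which had 18 vehicle counts, that with SFs was 4.46. By contrast, the OGN-to-vehicle ratio of Lcn2 was between 30.4-fold and 46.6-fold over the 4 CCL206 cultures and between 8.44-fold and 17.8-fold in Epcam+ cells. For Chil1 it was between 4.63-fold and 7.29-fold, and between 4.02-fold and 5.47-fold. Counting intervals cover counting error only.

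Levels of different genes were compared per kilobase of transcript. In Epcam+ cells with vehicle, Chil1 was at 109 ± 16.1 CPM per kb (SD, n = 4), Lcn2 at 40.9 ± 8.86 and Saa3 at 0.694 ± 0.327. With OGN, Lcn2 at 490 ± 71.3 CPM per kb was within the spread of Chil1 at 487 ± 51.3, and Saa3 was at 110 ± 13.0. In CCL206 fibroblasts with vehicle, the order was Chil1 (31.3 ± 11.3 CPM per kb), Lcn2 (11.7 ± 2.61) and Saa3 (0.425 ± 0.508). With OGN it was Lcn2 (417 ± 41.3), Saa3 (271 ± 36.0) and Chil1 (185 ± 45.7). Thus the gene with the highest level per kb in CCL206 was Chil1 with vehicle and Lcn2 with OGN.

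OGN was also compared with the other 2 treatments, as a description. In Epcam+ cells, the log2 difference of OGN from EVs was 1.99 (SE 0.127) for Lcn2, 3.98 (SE 0.179) for Saa3 and 1.17 (SE 0.0749) for Chil1, and from SFs 1.71 (SE 0.128), 3.17 (SE 0.178) and 0.89 (SE 0.0750). In CCL206 fibroblasts, OGN differed from EVs by 3.05 (SE 0.139), 4.46 (SE 0.267) and 1.42 (SE 0.128), and from SFs by 2.83 (SE 0.135), 4.15 (SE 0.255) and 1.63 (SE 0.128). OGN differed from EVs there by 3.28, 4.91 and 1.66 without the EV-treated CCL206 libraries of mice 2 and 4. The doses of the 3 treatments are in different units and are not matched.

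EVs and SFs, which both come from MRC5 cells, were tested against each other, since that comparison did not enter the choice of genes. None of the 3 genes passed an adjusted p of 0.05 (edgeR's quasi-likelihood test) in either fraction, against 0.0256% of all genes in Epcam+ cells (0.00854% higher and 0.0171% lower with EVs) and 28.9% in CCL206 (15.8% higher and 13.1% lower). In Epcam+ cells, Lcn2 was lower with EVs than with SFs by a log2 difference of -0.28 (95% interval -0.54 to -0.01, adjusted p = 0.979, unadjusted p = 0.0415). Saa3 differed by -0.80 (interval -1.21 to -0.39, adjusted p = 0.294, unadjusted p = 0.000527), and Chil1 by -0.28 (interval -0.44 to -0.13, adjusted p = 0.356, unadjusted p = 0.00112). Each of the 3 was lower with EVs in 4 of 4 mice and had an unadjusted p under 0.05, while none passed after adjustment over 11716 genes. For Chil1 in Epcam+ cells, DESeq2 gave -0.28 with an adjusted p of 0.0489, and over its 11 alternatives the adjusted p was between 0.0489 and 0.999. In CCL206 fibroblasts, the difference was -0.22 for Lcn2 (interval -0.51 to 0.07, adjusted p = 0.221), -0.31 for Saa3 (interval -0.91 to 0.29, adjusted p = 0.416) and 0.22 for Chil1 (interval -0.05 to 0.49, adjusted p = 0.204). Without the EV-treated CCL206 libraries of mice 2 and 4 these were -0.44 (adjusted p = 0.0986), -0.75 (adjusted p = 0.160) and -0.02 (adjusted p = 0.966). With the length trend removed, Lcn2 (-0.71, adjusted p = 0.00788) and Saa3 (-0.80, adjusted p = 0.0254) passed the threshold, and Chil1 was at -0.07 (adjusted p = 0.623). Over all alternatives in CCL206, the adjusted p was between 0.00788 and 0.76 for Lcn2, between 0.0254 and 0.81 for Saa3 and between 0.0838 and 0.966 for Chil1. Leaving out mouse 3, the CCL206 difference of Lcn2 was at -0.07, and leaving out mouse 4 it was at -0.38.

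With vehicle, Lcn2 and Chil1 were higher in the Epcam+ than in the CCL206 fraction of the same cultures. The log2 difference was 1.77 for Lcn2 (SE 0.196, adjusted p = 1.1e-05 by edgeR's quasi-likelihood test) and 1.84 for Chil1 (SE 0.1496, adjusted p = 9.3e-07), and each was higher in 4 of 4 cultures. The fractions differed in 71.4% of all 11749 genes tested, and 35.6% were higher and 35.8% lower in Epcam+ cells. Saa3 did not pass the filter on low counts in these 8 libraries and was not tested.

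The level in the CCL206 fraction as a percentage of that in the Epcam+ fraction was set beside that of epithelial genes. In bulk libraries, fewer cells of a type and less RNA per cell cannot be told apart. For Lcn2 this percentage was 30.2 ± 10.3% (SD, n = 4 cultures) with vehicle, 40.6 ± 4.82% with EVs, 40.3 ± 9.05% with SFs and 85.9 ± 5.91% with OGN. The median over 10 AT2 genes was 22.7 ± 8.28% with vehicle, 22.6 ± 1.95% with EVs, 16.02 ± 4.98% with SFs and 24.5 ± 7.91% with OGN. The median over 7 general epithelial genes was lower, at 5.68 ± 2.06% with vehicle, 7.67 ± 1.46% with EVs, 4.96 ± 1.26% with SFs and 8.49 ± 3.27% with OGN. Lcn2 with OGN, between 80.2% and 94.2%, lay above the AT2 median (17.6% to 34.9%) and Epcam itself (2.95% to 8.71%) in all 4 cultures. For Chil1 the percentage was 28.7 ± 8.16% with vehicle, 31.2 ± 4.11% with EVs, 23.1 ± 6.82% with SFs and 38.3 ± 10.4% with OGN, and with OGN its range was 30.6% to 52.9%. Chil1 lay above both the AT2 median and the epithelial median of the same culture in 16 of 16 cultures, and Lcn2 above the AT2 median in 15 of 16. Single AT2 genes spread widely about that median. With vehicle, mean CPM in Epcam+ and CCL206 was 3855 and 461 for Sftpb and 4299 and 1781 for Sftpc. For Napsa it was 139 and 49.6, and for Lrrk2 125 and 138. A place above the median is therefore not a place above every AT2 gene. In the EV-treated cultures of mice 1 and 3 alone, the percentage was 34.8% and 38.8% for Lcn2, and 30.4% and 34.2% for Chil1. The part of epithelial RNA in the CCL206 values of Lcn2 and Chil1 was not tested. Saa3 with OGN was in the opposite position, since its level in Epcam+ cells was 40.96 ± 5.11% of that in CCL206, while the median over 9 fibroblast genes was 19.1 ± 2.11%. The 4 Saa3 percentages (35.7% to 47.3%) lay above the medians of the fibroblast genes in these cultures (16.5% to 21.1%). With vehicle, 8 of the 9 fibroblast genes were lower in Epcam+ than in CCL206 and 1 was higher (edgeR's quasi-likelihood test). Of all genes, 35.8% were lower and 35.6% higher. A place above the median is again not a place above every gene of the list. The part of fibroblast RNA in the Epcam+ values of Saa3 was not tested.

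**Figure D3:**
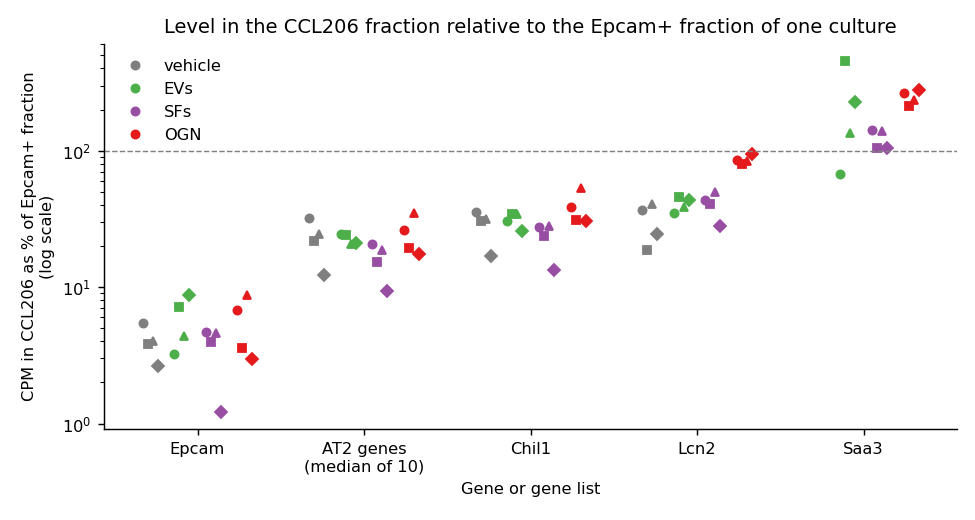
Level in the CCL206 fraction as a percentage of the Epcam+ fraction of the same culture (log scale) for Epcam, the median of 10 AT2 genes, Chil1, Lcn2 and Saa3, with a point for each of 4 cultures (symbols mark the mice), colours for treatments and a dashed line at equal levels; Saa3 with vehicle is left out for its low counts. The mean for Lcn2 was 30.2% with vehicle and 85.9% with OGN, and Saa3 with OGN lay between 211.6% and 279.9%.

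The difference between the responses of the 2 fractions is a description as well. With OGN, the log2 fold change in CCL206 exceeded that in Epcam+ cells by 1.54 for Lcn2 (SE 0.223), by 2.13 for Saa3 (SE 0.700) and by 0.42 for Chil1 (SE 0.152). For Lcn2, the levels of the fractions lay apart with vehicle and overlapped with OGN. With EVs the differences were 0.46 (SE 0.232), 1.63 (SE 0.718) and 0.16 (SE 0.154), and with SFs 0.42 (SE 0.229), 1.15 (SE 0.707) and -0.33 (SE 0.154). Without mouse 4 the Saa3 differences were 3.47 with OGN, 2.85 with EVs and 2.64 with SFs, and without mouse 1 they were 1.35, 1.21 and 0.26. The Lcn2 difference was between 0.22 and 0.67 with EVs and between 0.24 and 0.51 with SFs with 1 mouse left out, lowest without mouse 2 in both. For Chil1 with EVs, leaving out mouse 4 gave -0.0018 and leaving out mouse 1 gave 0.31, and that with OGN was 0.31 without mouse 3 or mouse 4. When the EV-treated CCL206 libraries of mice 2 and 4 were left out, the differences with EVs were 0.23 for Lcn2, 1.19 for Saa3 and -0.061 for Chil1.

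The genes whose pattern was most like that of the members were looked for over the 32 libraries, by Pearson correlation of log2 CPM after centring on each mouse within a fraction, among 11186 genes. All 3 members had the same 5 nearest genes, namely the other 2 members, Cxcl5, Cxcl3 and Slpi. Cxcl5 and Cxcl3 encode chemokines that attract neutrophils, and Slpi encodes a secreted leukocyte protease inhibitor. Between members, r was 0.98 for Lcn2 and Saa3, 0.98 for Lcn2 and Chil1, and 0.97 for Saa3 and Chil1. With the members, r lay between 0.96 and 0.97 for Cxcl5 and between 0.95 and 0.97 for Cxcl3, and it lay between 0.95 and 0.96 for Slpi. The points share their libraries and the 4 treatments, so these values describe a shared pattern over treatments. After the mean of each of the 8 groups was removed, r over the 32 libraries was 0.59 for Lcn2 and Chil1, 0.08 for Lcn2 and Saa3, and -0.27 for Saa3 and Chil1. With OGN, the log2 fold change was 2.67 in Epcam+ cells and 2.88 in CCL206 for Cxcl5, 2.37 and 3.52 for Cxcl3, and 2.15 and 2.81 for Slpi.

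Of 40 other genes linked to the acute-phase response, 16 were in the table, and these were tested against vehicle. This list and those below were chosen with earlier results of these data known. Their counts beside the shares of all genes are therefore a description. Slpi, a gene of this list, was also among the genes most like each member in these libraries. With OGN in Epcam+ cells, 9 of 16 rose and none fell at an adjusted p of 0.05, beside 1.48% of all genes that rose and 1.22% that fell. The median log2 fold change of the 16 was 0.52, against -0.003 over all genes. Slpi rose by 2.15 (SE 0.110), and Lrg1, which encodes a secreted leucine-rich glycoprotein, by 1.76 (SE 0.220). Steap4, a metalloreductase of iron handling, rose by 1.53 (SE 0.214). Cd14, a co-receptor for lipopolysaccharide, rose by 0.76 (SE 0.0875), and C3, the central complement component, by 0.74 (SE 0.0935). Ceruloplasmin (Cp), lactotransferrin (Ltf), haptoglobin (Hp) and Lbp were the others that rose. In CCL206 fibroblasts with OGN, 7 of 16 rose and none fell, beside 2.70% of all genes that rose and 1.86% that fell, and the median log2 fold change was 0.66, against -0.01 over all genes. The log2 fold change was 2.81 (SE 0.192) for Slpi, 2.57 (SE 0.419) for Lrg1, 2.35 (SE 0.225) for Steap4, 2.26 (SE 0.220) for Hp and 1.76 (SE 0.155) for Cd14. Cp and C3 also rose. Without the EV-treated CCL206 libraries of mice 2 and 4, which share the estimate of the spread, 13 of 16 genes passed in CCL206 with OGN, 12 of them higher. The share of all genes was counted only with all 16 libraries in the fit. Counts from fits with fewer libraries therefore have no such share beside them, here and below. Slpi, at 2.15 in Epcam+ cells and 2.81 in CCL206, was beside Chil1 at 2.17 and 2.60, while Lcn2 and Saa3, which were chosen for their fold changes, were higher.

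**Figure D4:**
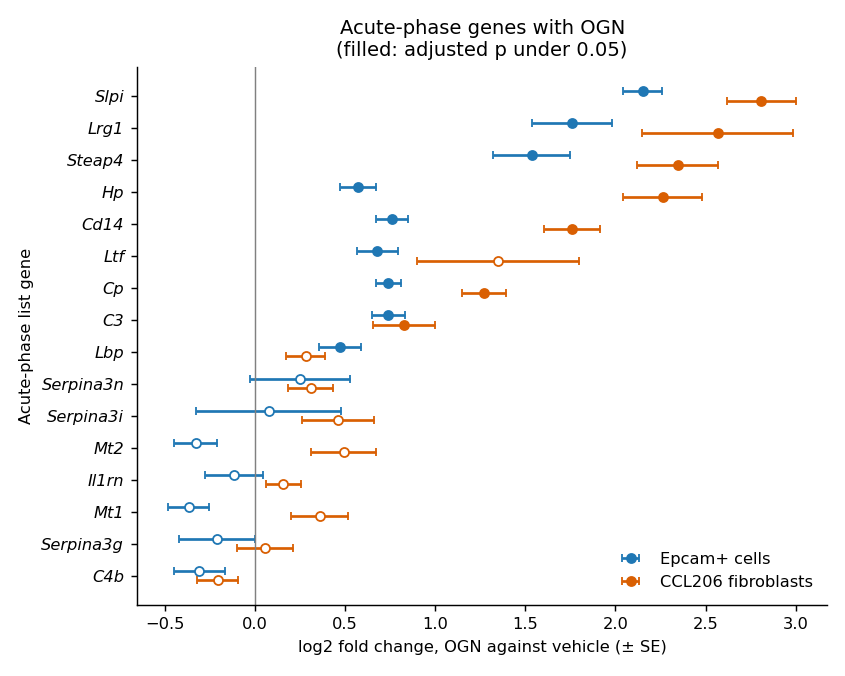
Log2 fold change (± SE) with OGN against vehicle of the 16 acute-phase list genes in Epcam+ cells (blue) and CCL206 fibroblasts (orange), with filled points for an adjusted p under 0.05. Slpi, Lrg1 and Steap4 had the highest values in both fractions.

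With EVs and SFs, the counts for this list moved with single mice. In Epcam+ cells, 4 rose and 2 fell with EVs, beside 0.538% and 0.350% of all genes. Slpi (0.63), Lbp (0.55) and C3 (0.45) were among those that rose, and the metallothioneins Mt1 (-0.61) and Mt2 (-0.58) fell. Of 9 fibroblast markers, 4 rose in the same Epcam+ libraries, with a median log2 fold change of 0.36 and a sum between 3162 and 3745 CPM, against 2239 to 3111 CPM with vehicle. With vehicle, Lbp, C3 and Cp were lower in Epcam+ than in CCL206 by log2 differences of -2.02, -2.08 and -0.65, and the part of fibroblast RNA in their rise was not tested. Without mouse 1 none of the 16 passed, and without mouse 2 or mouse 3 it was 2. With SFs, Slpi (0.85) and C3 (0.44) rose and Mt2 (-0.59) fell, beside 0.154% and 0.0768% of all genes, and 1 gene passed without mouse 1 or mouse 2. In CCL206 fibroblasts, 9 of 16 rose with EVs, beside 19.8% of all genes. Lrg1 (2.14), Slpi (1.68), Hp (1.17), Steap4 (1.03) and Cd14 (0.88) had the largest log2 fold changes. Without the EV-treated libraries of mice 2 and 4 these were at 2.19, 1.15, 0.58, 1.48 and 0.67, and 7 genes passed. Without mouse 2 only 1 gene passed. With SFs in CCL206, Slpi alone rose (1.10, adjusted p = 0.0495), beside 0.0599% of all genes that rose and 0% that fell. It did not pass without mouse 1, mouse 2 or mouse 3, and 5 genes passed without the EV-treated libraries of mice 2 and 4.

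Genes of cytokines, cytokine receptors and Toll-like receptor signaling were tested in the same way. Of 23, 16 were in the table, and those of the ligands Il1a, Il1b, Il6, Tnf, Osm and Il17a were not analysed here. With OGN in Epcam+ cells, where 1.48% of all genes rose, 1 of 16 did, Il4ra (log2 fold change 0.59, SE 0.0836), a subunit of the receptors for IL-4 and IL-13, and the count was 3 without mouse 4. With OGN in CCL206 fibroblasts, 3 of 16 rose, beside 2.70% of all genes. Tlr2, a receptor for bacterial lipoproteins, rose by 1.65 (SE 0.232), Il1rap, the accessory chain of the IL-1 receptor, by 1.34 (SE 0.180), and Il13ra1 by 0.40 (SE 0.101). The count in CCL206 was 2 without mouse 2, mouse 3 or mouse 4, and it was 7 without the EV-treated libraries of mice 2 and 4. With EVs, Il4ra rose in Epcam+ cells (0.35, adjusted p = 0.0473), but not with any mouse left out. In CCL206, Il17rc rose (0.59) and Lifr (-0.84), Il6st (-0.70), Osmr (-0.57) and Il1r1 (-0.41) fell with EVs, while 19.8% of all genes rose and 16.2% fell. Without the EV-treated libraries of mice 2 and 4, Il17rc was at 0.25, Lifr at -0.57, Il6st at -0.34, Osmr at -0.22 and Il1r1 at -0.23. None of these passed without mouse 2, and 2 genes passed without mouse 4 or without the EV-treated libraries of mice 2 and 4. With SFs no gene of the list passed in either fraction by edgeR's test or by DESeq2, and 3 in Epcam+ cells and 2 in CCL206 had an unadjusted p under 0.05. Of all genes, 0.230% passed with SFs in Epcam+ cells and 0.0599% in CCL206 by edgeR's test. A count of 0 is near these shares and is not read as a result.

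All 21 genes of NF-kB, C/EBP, STAT3 and AP-1 transcription factors and their feedback regulators were in the table. With OGN in Epcam+ cells, 3 rose and none fell, beside 1.48% and 1.22% of all genes. Zc3h12a, which encodes a ribonuclease that degrades inflammatory transcripts, rose by 1.49 (SE 0.175), Cebpd by 0.89 (SE 0.181) and Tnfaip3, a feedback inhibitor of NF-kB signaling, by 0.55 (SE 0.102). In CCL206 fibroblasts with OGN, Zc3h12a rose by 1.11 (SE 0.126), Nfkb1 by 0.55 (SE 0.0960) and Traf3ip2, an adaptor of the IL-17 receptor, by 0.53 (SE 0.126), beside 2.70% of all genes that rose and 1.86% that fell. The count in CCL206 was 6 without the EV-treated libraries of mice 2 and 4, and without mouse 2 it was 2. Leaving out mouse 1, the count in Epcam+ cells was 2. With SFs none of the 21 passed in either fraction by edgeR's test or by DESeq2, and 3 in Epcam+ cells and 1 in CCL206 had an unadjusted p under 0.05. Of all genes, 0.230% passed with SFs in Epcam+ cells and 0.0599% in CCL206 by edgeR's test. A count of 0 is near these shares and is not read as a result. With EVs none passed in Epcam+ cells by edgeR's test, beside 0.888% of all genes, 3 had an unadjusted p under 0.05, and DESeq2 called 1. In CCL206 with EVs, Cebpb (1.27), Cebpd (0.95) and Zc3h12a (0.70) were among 4 that rose, and Rel (-0.94) and Tnfaip3 (-0.50) fell. These counts of 4 and 2 of 21 are no higher than the 19.8% of all genes that rose and the 16.2% that fell. Leaving out the EV-treated libraries of mice 2 and 4, the values were 1.29 for Cebpb, 0.40 for Cebpd, 0.74 for Zc3h12a, -0.51 for Rel and -0.24 for Tnfaip3. None passed without mouse 2, and 1 gene passed without mouse 4 or without the EV-treated libraries of mice 2 and 4.

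Genes of known receptors and binding partners of the 3 proteins were tested too. With OGN, Il13ra2, a receptor that binds the Chil1 protein, rose by 2.04 (SE 0.423) in Epcam+ cells and by 1.83 (SE 0.252) in CCL206. Ager, the receptor for advanced glycation end products and a marker of alveolar type 1 cells, fell by 0.52 (SE 0.0941) on the log2 scale in Epcam+ cells. P2rx7, a receptor for extracellular ATP, rose by 1.43 (SE 0.383) in CCL206, from a mean of 0.967 CPM with vehicle to 2.58 CPM, which are low levels. The other genes of the 9 tested, of 14 listed, did not pass with OGN. Of all genes, 2.70% passed with OGN in Epcam+ cells and 4.56% in CCL206. Lrp2, an endocytic receptor for Lcn2, was at -1.20 and Lgals3 at 0.54 with EVs in CCL206, and at -0.81 and 0.19 without the 2 libraries with the length trend. With SFs no gene of this list passed by edgeR's test, with an unadjusted p under 0.05 for 2 in Epcam+ cells and 3 in CCL206. Of all genes, 0.230% passed with SFs in Epcam+ cells and 0.0599% in CCL206, so the lack of calls is not read as a result. Of 15 other lipocalin and chitinase family genes, 5 were in the table. Chia1, an active chitinase, fell by 0.95 (SE 0.156) on the log2 scale with OGN in Epcam+ cells, where 4 of these genes were tested and 1.22% of all genes fell. Chid1 was at 0.53 with EVs in CCL206 and at 0.28 without the EV-treated libraries of mice 2 and 4. That is 1 of 5 genes, beside 36.0% of all genes, and no other family gene passed with any treatment.

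Markers of other cells that are known to make these proteins were also counted. None of the 10 neutrophil markers and 6 endothelial markers was in the table, and 2 of 12 macrophage markers were, Cd68 and Lyz2. Every gene of the table has at least 1 count in all 32 libraries, so a gene outside it was not analysed here and may still be expressed in some of them. Lyz2, which AT2 cells also express, rose with OGN by 0.69 (SE 0.0886) in Epcam+ cells and by 1.03 (SE 0.211) in CCL206, and the sum of both genes was between 185 and 253 CPM with vehicle and between 298 and 402 CPM with OGN in Epcam+ cells. In CCL206 that sum was between 49.9 and 121 CPM with vehicle and between 104 and 218 CPM with OGN. Cd68 alone was at 3.70 ± 1.81 CPM (SD, n = 4) with vehicle and 5.76 ± 2.14 CPM with OGN in Epcam+ cells. Secretory cell markers (3 of 7 in the table) summed to between 3321 and 4256 CPM with vehicle and to between 1497 and 2633 CPM with OGN in Epcam+ cells. Basal cell markers (4 of 6) summed to between 883 and 2562 CPM and to between 471 and 1603 CPM. Scgb1a1, the main secretory protein of club cells, and the keratins Krt5 and Krt15 fell with each treatment in Epcam+ cells. Of the 3 secretory markers, 3 fell with EVs, 2 with SFs and 3 with OGN. Of the 4 basal markers, 3 fell with each treatment. The shares of all genes that fell with EVs, SFs and OGN in Epcam+ cells were 0.350%, 0.0768% and 1.22%. With OGN, the AT2 markers summed to between 11964 and 15107 CPM there, within the wide range of vehicle, in which Sftpc alone was between 663 and 6789 CPM. Of the 10 genes on the AT2 list, 2 rose with OGN (Sftpa1 by 0.42 and Sftpd by 0.45) and 1 fell (Hopx, -0.64). Of all genes, 1.48% rose and 1.22% fell with OGN in Epcam+ cells. How far each gene of the list is specific to AT2 cells was not tested. The 7 epithelial markers summed to between 3741 and 4779 CPM with OGN in Epcam+ cells, against 3916 to 4107 CPM with vehicle. In CCL206 they summed to between 271 and 531 CPM with OGN, against 170 to 438 CPM with vehicle. All 7 had a log2 fold change above 0 there (median 0.478). Of these 7, 1 rose, as did 2 of 10 AT2 markers, beside 2.70% of all genes. The median of the 7 in CCL206 was 0.485 with EVs and -0.293 with SFs. The part of such shifts in the levels of Lcn2, Saa3 and Chil1 was not tested.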

How the data were processed

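RNA was measured in both fractions of 16 cultures (4 mice, 4 treatments), which gave 32 libraries of 1805914 to 17675454 counts. The authors trimmed reads with Trimmomatic (version 0.30, per the labels) and deposited raw counts per gene without normalization, as 1 table of 11818 genes whose lowest count is 1. All columns were used. The labels name GRCm39 and the methods GRCm38 (patch 6). The aligner, the counting program, the annotation and the treatment of reads shared between Saa genes are not given in the sources used here. DESeq2 (version 1.34.0) is also named in the labels. Positions and promoters were taken from RefSeq (GRCm38.p6), and 3 of 3 members were matched.

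Counts were filtered with filterByExpr, scaled by TMM and tested with edgeR's quasi-likelihood test (version 4.0.16, R version 4.3.3), with terms for mouse and for treatment, in each fraction alone (16 libraries). Fractions were compared in the 8 vehicle libraries with mouse and fraction, and responses in 1 model of all 32 libraries that holds mouse within fraction. P-values were adjusted by Benjamini-Hochberg over all genes tested, and a gene was called where the adjusted p was below 0.05. The members and the gene lists were chosen with earlier results of these data known. In each list, up to 5 called genes with the largest absolute log2 fold change per comparison were given values, and further called genes were only named. For each member, the 5 genes with the highest correlation (log2 CPM, prior count 2, mean log2 CPM of at least 1 in both fractions) were named. Cd68, Lyz2, Scgb1a1, Krt5, Krt15, Sftpa1, Sftpc, Sftpd and Hopx were singled out among the markers after their values had been seen.

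Libraries of 1 mouse were taken as pairs, as the labels number the mice. Residuals of the same mouse correlated with a mean r of 0.135 in Epcam+ cells and 0.107 in CCL206, against -0.040 and -0.036 between mice. Since CCL206 is 1 line, p-values there measure the spread between cultures. No pair of replicate libraries (48 pairs) agreed within sampling noise. Transcript lengths (GENCODE, GRCm39) were matched to 98.9% of genes. The code was tested on simulated data. Alternatives were a model without mouse, RLE size factors, DESeq2 (version 1.42.0), no filter, at least 10 counts in every library, each mouse left out, only the 8 libraries compared, all 32 libraries for the fractions with vehicle, the length trend removed, and the EV-treated CCL206 libraries of mice 2 and 4 left out. The length trend for the list counts, and leaving out these libraries for any comparison but EVs against SFs (the responses between fractions included), were chosen after seeing the data. Plots were made in Python (version 3.11.15) with matplotlib (version 3.10.9).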

Additional observations from a re-analysis of the deposited data

Results flagged for a closer look

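No library of the 3 genes stood apart from its group in the 24 checks of 4 libraries each. For list genes given values, the response was also compared between the fractions by a test of the difference itself (edgeR's quasi-likelihood test, CCL206 minus Epcam+). These genes had passed against vehicle in at least 1 fraction, so how many of them passed here is not read against all genes. With OGN, 2 of 19 passed. The difference was 1.69 for Hp (adjusted p = 0.000299; log2 fold change 2.26 in CCL206 and 0.57 in Epcam+ cells) and 0.99 for Cd14 (adjusted p = 0.00302; 1.76 and 0.76). Hp and Cd14 were higher in Epcam+ than in CCL206 with vehicle, and the part of epithelial RNA in their CCL206 responses was not tested. Without the EV-treated CCL206 libraries of mice 2 and 4, 5 of 19 passed, namely Hp (1.73), Cd14 (1.02), Slpi (0.66), Il1rap (1.18) and Il4ra (-0.49).

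With EVs, 16 of 23 list genes passed, and none of the 23 did without the EV-treated CCL206 libraries of mice 2 and 4, which leaves 2 EV-treated CCL206 libraries. The difference was above 0 for Lrg1 (1.32, and 1.38 without these libraries), Mt1 (1.17 and 0.80), Hp (1.10 and 0.53), Slpi (1.01 and 0.51), Mt2 (0.92 and 0.68), Cd14 (0.73 and 0.54) and Lgals3 (0.55 and 0.21). It was below 0 for Lrp2 (-1.17 and -0.77), Rel (-1.06 and -0.61), Osmr (-0.93 and -0.56), Lifr (-0.92 and -0.64), Il6st (-0.73 and -0.36), C3 (-0.60 and -0.23), Tnfaip3 (-0.59 and -0.32), Lbp (-0.50 and -0.43) and Il4ra (-0.39 and -0.37). Each of the 16 kept its direction without these libraries, and the part of the length trend in the lost calls was not tested.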

How the results depend on the processing

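Saa3 rests on few counts with vehicle, and Epcam+ libraries hold fibroblast RNA and the reverse. The EV-treated CCL206 libraries carry a trend with transcript length, most of all those of mice 2 and 4. Of the members' values under alternatives, 501 kept their direction and side of the threshold or moved within the spread between replicates, 3 moved further, 3 newly passed and 2 changed sign. Saa3 had no value with at least 10 counts in every library, nor between the fractions with vehicle. DESeq2 put the EVs and SFs difference of Chil1 in Epcam+ cells (-0.28) past the threshold. With the length trend removed, EVs against vehicle in CCL206 was 1.51 for Lcn2, EVs against SFs -0.71 for Lcn2, -0.80 for Saa3 and -0.073 for Chil1, and OGN against EVs 3.68 for Lcn2 and 1.71 for Chil1. Without the EV-treated CCL206 libraries of mice 2 and 4, EVs against SFs was -0.016 for Chil1.

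Of the counts of called list genes, 158 stayed within 1.5 times and 49 did not. The cause was not tested, and no share of all genes was counted for these alternatives. Without mouse as a block (no pairing), the acute-phase counts were 0 with EVs and 1 with SFs in Epcam+ cells and 0 with SFs in CCL206, and the cytokine and receptor count was 0 with EVs in Epcam+ cells. The block changed no other call of a member or of a list count by over 1.5 times. For the acute-phase list, SFs gave 5 in Epcam+ cells with DESeq2 and with only the 8 libraries compared, and in CCL206 0 with RLE size factors or at least 10 counts, 2 with DESeq2, and 5 with 8 libraries or without the 2 EV-treated libraries. In CCL206, EVs gave 2 with 8 libraries, and OGN gave 11 with 8 libraries and 13 without the 2 EV-treated libraries. For cytokines and receptors, EVs gave 0 in Epcam+ cells with 8 libraries or the length trend removed, and in CCL206 1 with 8 libraries, 3 with the trend removed and 2 without the 2 libraries. OGN gave 2 in Epcam+ cells with DESeq2, and in CCL206 5 with DESeq2 and 7 with 8 libraries or without the 2 libraries. For regulators, DESeq2 gave 1 with EVs in Epcam+ cells, and in CCL206 EVs gave 0 with 8 libraries and 1 without the 2 libraries. SFs gave 1 with 8 libraries, and OGN gave 5 with DESeq2, 8 libraries or the trend removed and 6 without the 2 libraries.

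With 1 mouse left out at a time, the acute-phase count was between 0 and 7 (EVs) and between 1 and 3 (SFs) in Epcam+ cells, and between 1 and 9 (EVs) and between 0 and 1 (SFs) in CCL206. The cytokine and receptor count was 0 each time (EVs) and between 1 and 3 (OGN) in Epcam+ cells, and between 0 and 5 (EVs) in CCL206. The regulator count with EVs in CCL206 was between 0 and 7.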
